A study of Mus musculus with 18 samples.

Results

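The retinoic acid genes described here are 10 genes that act between the uptake of retinol and the receptors that read its product: Stra6 (uptake), Rdh10, Aldh1a2 and Aldh1a3 (synthesis), Cyp26b1 (breakdown), Crabp1 and Crabp2 (carriers), and Rara, Rarb and Rarg (receptors). They were chosen by name, with earlier results of these data known, and found by gene identifier among 55487 counted genes. All 10 passed the filter on low counts, as did 20118 genes in all. RNA was sequenced from individual mouse forelimb buds in 18 libraries, 3 in each of 6 groups. Every group carried Esco2fl/fl, that is, both copies of Esco2 flanked by loxP sites. Mutants (genotype Esco2fl/fl;Prrx1-CreTg/0) also carried a Cre recombinase transgene driven by regulatory sequence of Prrx1, which is active in limb mesenchyme and not in limb ectoderm, and controls carried no Cre, so effects of Cre and of Esco2 loss cannot be told apart. Esco2 is the gene of an acetyltransferase needed for cohesion of sister chromatids after replication. Both genotypes were sampled at 3 embryonic stages: E9.5, when the bud has just emerged, then E10.5, and last E11.5. Nothing in the labels tells if libraries within 1 group stem from different embryos or litters, so the p-values reflect variation among the sequenced libraries, some of which may be technical.

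Retinoic acid is made inside cells from vitamin A. The receptor STRA6 takes up retinol from its carrier in blood, the dehydrogenase RDH10 oxidises it to retinaldehyde, and enzymes of the ALDH1A family turn retinaldehyde into retinoic acid. CRABP proteins bind the acid in the cytoplasm, CYP26 enzymes destroy it, and the nuclear receptors RARA, RARB and RARG bind DNA with an RXR partner and change transcription when they hold it. In the early limb the trunk and flank next to the bud make retinoic acid, while Cyp26b1 in the distal mesenchyme clears it, so that the acid is higher near the body wall than at the tip.

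On mm10, the build of the files, Stra6 spans chr9:58063788-58153996, Rdh10 chr1:16105774-16133734, Aldh1a2 chr9:71215789-71296243, Rara chr11:98927818-98974942, Crabp1 chr9:54764748-54773110 and Crabp2 chr3:87948666-87953376 on the plus strand. On the minus strand lie Aldh1a3 at chr7:66390890-66427517, Cyp26b1 at chr6:84571414-84593908, Rarb at chr14:16430839-16819156 and Rarg at chr15:102234938-102257517. Reads were counted over the exons of each gene on its own strand, and no member shared exon bases with another gene there.

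Total counts per library ran from 35034237 to 56230058. Levels are CPM (reads of a gene scaled to a fixed library size, with sizes adjusted by the trimmed mean of M values), and a level compared between genes is CPM per kb of exon. Differences are log2 changes ± SE from edgeR's quasi-likelihood model fitted to all 18 libraries, and a gene rose or fell only where its Benjamini-Hochberg adjusted p over all 20118 genes was under 0.05. Counts for Esco2 itself include exons that Cre may leave in place, and its level was 25.0 to 28.1 CPM in E9.5 controls and 15.3 to 19.8 in E9.5 mutants, 28.1 to 33.6 and 18.9 to 22.3 at E10.5, and 20.6 to 30.9 and 22.5 to 23.8 at E11.5. It fell at E10.5 (log2 change -0.53 ± 0.14, adjusted p = 0.0200). The E9.5 change of -0.60 ± 0.14 (adjusted p = 0.162) and the E11.5 change of -0.26 ± 0.14 (adjusted p = 0.238) did not pass, and the E11.5 groups overlapped. A pair of libraries stood apart in earlier results of these data, control E9.5 replicate 1, which had the fewest genes with a count (22294), and mutant E10.5 replicate 3, whose 10 erythroid markers summed to 20064 CPM against 6386 and 9978 in the other E10.5 mutants. Results were therefore also obtained without both.

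The buds of all 6 groups held the markers of limb mesenchyme, several of which were lower in the mutants from E10.5 on. The summed level of 7 such markers was 1670 to 2001 CPM in E9.5 controls and 1513 to 1650 in E9.5 mutants, where 0 of the 7 passed the test. It was 1709 to 1767 in E10.5 controls and 845 to 1072 in mutants, and 1970 to 2017 in E11.5 controls and 832 to 1101 in mutants. At E10.5 4 of the 7 fell (Prrx1, Tbx5, Pdgfra and Lhx9), and at E11.5 5 fell, Prrx2 being the fifth. Markers of surface ectoderm moved the other way, with 11 of 12 higher at E10.5 and 10 of 12 at E11.5, as did those of the apical ectodermal ridge (6 and 4 of 9 higher) and macrophages (4 and 6 of 8 higher). Of 10 erythroid markers, 6 were higher at E10.5 and 0 at E11.5, and of 7 tested markers of cartilage condensation 4 were lower and 1 higher at E10.5 and 6 lower at E11.5. The part of these cell types in the results below was not tested. In whole buds, fewer cells of a type and less RNA per cell cannot be told apart.

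Seen together, no member passed the test at E9.5, and those that passed at the later stages were lower in mutants. At E9.5 0 of 10 members changed by edgeR, against 0.184% of all genes tested, and 0 by DESeq2. The unadjusted p was under 0.05 for 1 member (Crabp2), against 9.92% of all genes, and 0 members had groups that did not overlap, against 8.87%. At E10.5 4 members fell and 0 rose, against 6.63% of all genes falling and 7.3% rising. At E11.5 3 fell and 0 rose, against 9.52% falling and 8.02% rising. Every mutant library lay below every control for 5 members at E10.5 and 6 at E11.5, against 23.1% and 20.7% of all genes. The median log2 change of the members was -0.03 at E9.5, -0.41 at E10.5 and -0.44 at E11.5, beside medians of -0.01, 0.02 and 0.01 over all genes. In controls alone, 3 members rose and 2 fell from E9.5 to E10.5, against 15% of all genes rising and 12.5% falling, and 2 rose and 2 fell from E10.5 to E11.5, against 6.6% and 2.89%. That last count was 7 in all with DESeq2 and 1 with no filter on low counts. Comparisons that involve a stage share its control libraries and are not independent. Because the members were chosen with earlier results known, the shares over all genes describe them and do not test the set.

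**Figure D1:**
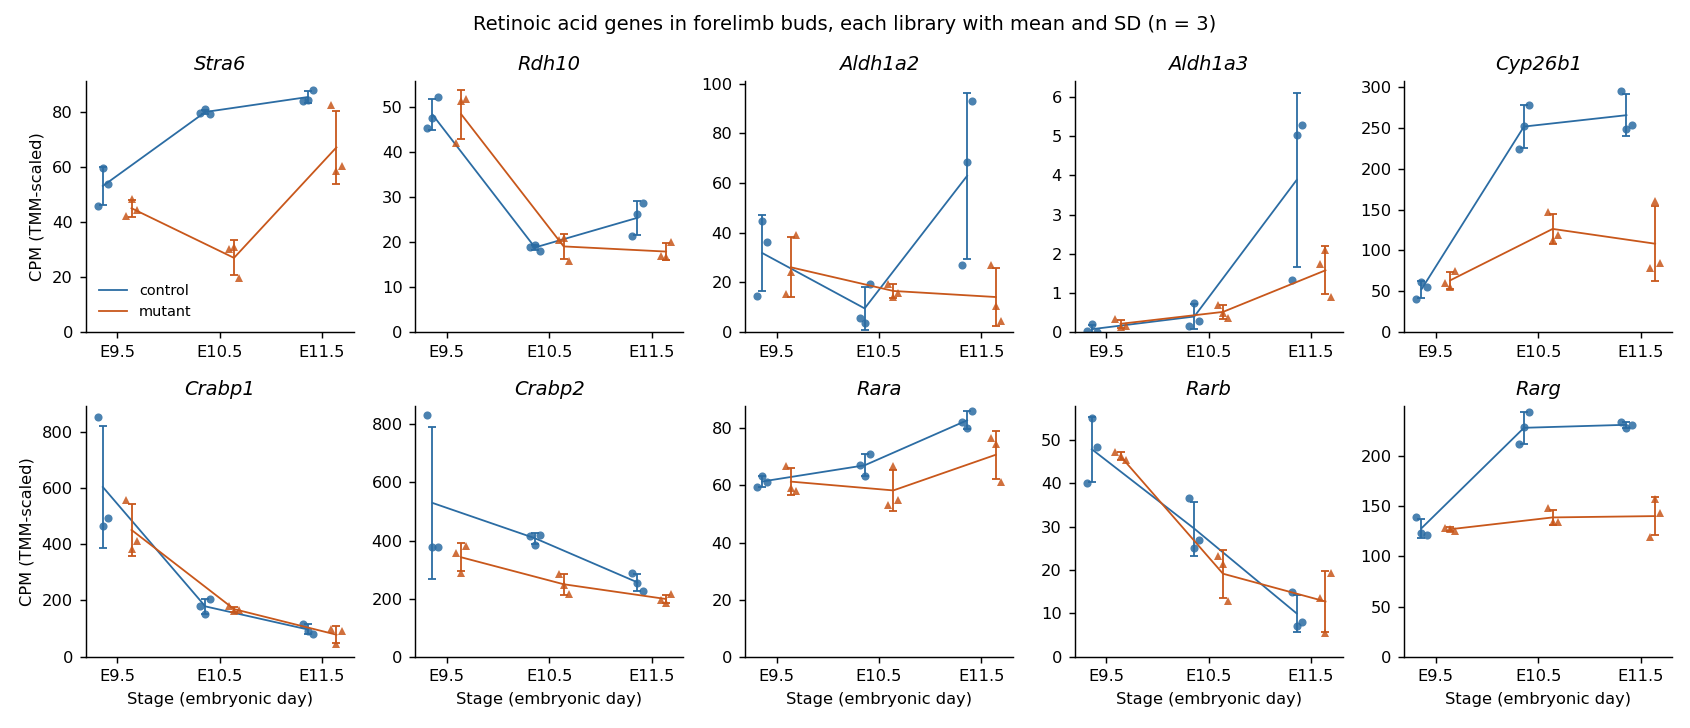
Level of each retinoic acid gene (CPM, linear axis from 0) at each stage (embryonic day) in control (blue circles) and mutant (orange triangles) libraries, with the mean and SD of 3 libraries per group joined by lines. Stra6, Cyp26b1 and Rarg of the E10.5 mutants lay below every E10.5 control, and Crabp1 was highest at E9.5 in both genotypes.

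Stra6, the retinol receptor, fell most at E10.5 among the members. Its control level was 45.7, 59.5 and 53.8 CPM at E9.5 (replicates 1 to 3), 79.5, 80.9 and 79.3 at E10.5, and 84.0, 84.2 and 87.7 at E11.5. Its mutant level was 42.2, 48.3 and 44.4 CPM at E9.5, 30.2, 31.0 and 19.6 at E10.5, and 82.4, 58.5 and 60.3 at E11.5. The E9.5 groups overlapped, the E10.5 mutants lay far below the controls, and the E11.5 mutants lay closer beneath them, with replicate 1 almost at the control level. At E10.5 Stra6 was 2.96-fold lower (log2 change -1.57 ± 0.16, adjusted p = 6.38e-06), and it kept its call with each E10.5 library left out (log2 change -1.68 to -1.38, adjusted p at most 5.96e-05). At E9.5 the difference was -0.24 ± 0.16 (adjusted p = 0.544) and at E11.5 it was -0.35 ± 0.15 (adjusted p = 0.138), which passed the test without mutant E11.5 replicate 1 (-0.52, adjusted p = 0.0364). The mutant effect was lower at E10.5 than at E9.5 by -1.33 ± 0.22 (log2, adjusted p = 0.00564), a call held with each of the 12 libraries left out and shared by 1.29% of all genes. It was then less negative at E11.5 than at E10.5 by 1.22 ± 0.22 (adjusted p = 0.0473), the only gene of 20118 called in that direction (0.00497%). That call rested on the full set of libraries: it held in 1 of 12 fits that left out a library (adjusted p 0.0464 to 0.183) and was lost with the replicate block and with only those stages fitted.

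In controls Stra6 rose from E9.5 to E10.5 by 0.59 ± 0.16 (adjusted p = 0.00982) and differed by 0.09 ± 0.15 from E10.5 to E11.5 (adjusted p = 0.784). Set against the mesenchyme markers, Stra6 stood at 44.9 to 46.5 CPM per 1000 CPM of those 7 genes in E10.5 controls and 23.2 to 34.7 in E10.5 mutants, so the groups stayed apart on that scale too. At E11.5 the same quantity was 42.4 to 43.5 in controls and 53.1 to 99.0 in mutants, the reverse order. The mean marker sum was itself lower in mutants, at 0.539 of controls at E10.5 and 0.483 at E11.5. Here and below, a gene that was lower by less than that sum, or unchanged, therefore stands higher in mutants on this scale.

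**Figure D2:**
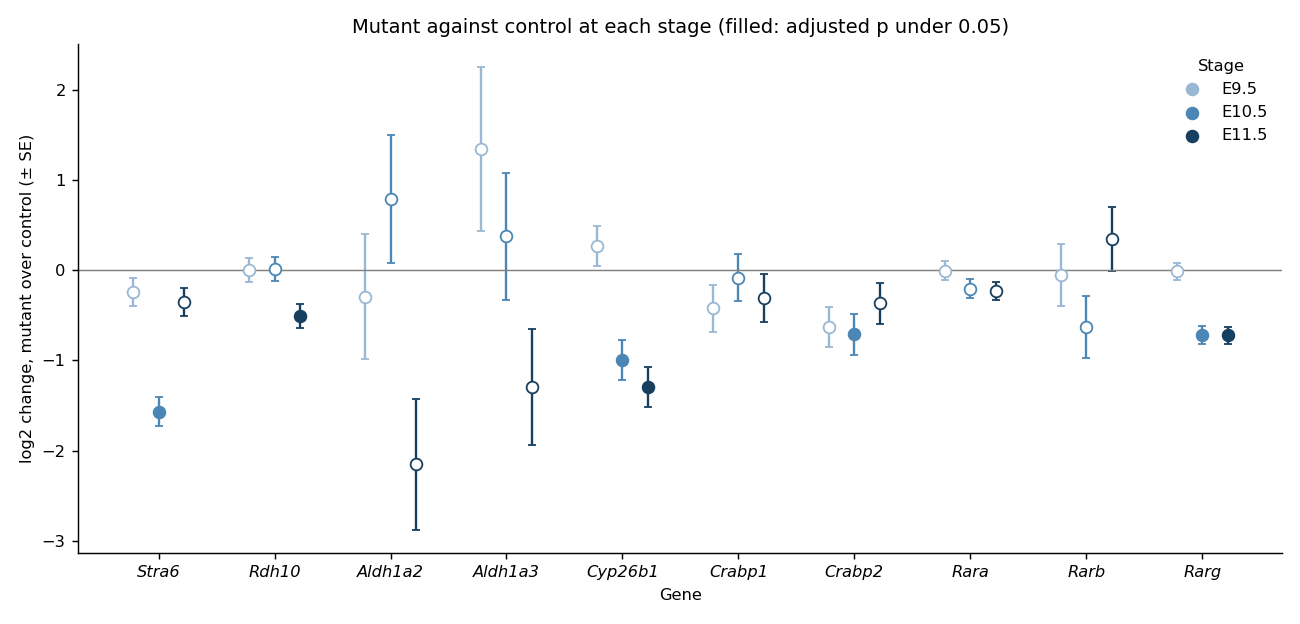
Mutant over control log2 change with its SE (vertical axis) for the 10 genes (horizontal axis) at the 3 stages (light to dark), filled where the adjusted p was under 0.05. Filled points are all below 0: 4 at E10.5 and 3 at E11.5, with Stra6 lowest of them at -1.57.

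Rdh10, the enzyme of the step that limits retinoic acid synthesis in the embryo, passed the mutant test at E11.5 alone among the 3 stages. Control levels were 45.4, 47.6 and 52.2 CPM at E9.5, 19.0, 19.4 and 18.1 at E10.5, and 21.3, 26.2 and 28.8 at E11.5. Mutant levels were 42.2, 51.5 and 51.8, then 20.4, 21.0 and 15.8, then 17.0, 16.7 and 20.2. The groups overlapped at E9.5 and E10.5, and at E11.5 every mutant lay below every control, by a narrow gap. In controls Rdh10 fell from E9.5 to E10.5 (-1.36 ± 0.14, adjusted p = 2.55e-06). The mutant difference was 0.00 ± 0.13 at E9.5 (adjusted p = 0.998) with a 95% interval of -0.28 to 0.28, and 0.02 ± 0.13 at E10.5 (adjusted p = 0.950) with an interval of -0.27 to 0.30. At E11.5 Rdh10 fell by 0.51 on the log2 scale (SE 0.13, adjusted p = 0.0150). That call ended without control replicate 2 or 3 or mutant replicate 1 or 2 (adjusted p up to 0.0892). Control replicate 1 and mutant replicate 3, which share the number that opens their library description (79), had 21.3 and 20.2 CPM. What this number stands for is not stated in the labels. Per 1000 CPM of mesenchyme markers Rdh10 stood at 10.8 to 14.3 in E11.5 controls and 15.1 to 21.1 in E11.5 mutants, the reverse of the order in CPM. The marker sum was lower in mutants by more than Rdh10 was, and the order on this scale follows from that.

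Aldh1a2, the main retinoic acid synthase of the early embryo, varied widely between libraries of the same group. It had 14.7, 44.8 and 36.1 CPM in E9.5 controls and 15.3, 24.0 and 39.0 in E9.5 mutants. It had 5.58, 3.77 and 19.3 CPM in E10.5 controls and 19.6, 14.2 and 16.0 in E10.5 mutants. At E11.5 controls had 27.0, 68.6 and 93.1 CPM and mutants 27.2, 10.54 and 4.65. Mutant and control libraries overlapped at every stage, at E11.5 through control replicate 1 and mutant replicate 1 alone. The E11.5 difference was -2.15 ± 0.72 (adjusted p = 0.0559), and it passed the test without control replicate 1 or without mutant replicate 1 (lowest adjusted p = 0.0215), as well as by DESeq2. The E10.5 difference was 0.79 ± 0.71 (adjusted p = 0.507), and the E9.5 difference was -0.29 ± 0.69 (adjusted p = 0.876). From E10.5 to E11.5 Aldh1a2 rose in controls by 2.72 ± 0.74 (adjusted p = 0.0343), a call held in 2 of 6 fits that left out 1 library and lost without control E10.5 replicate 1 or 2 or control E11.5 replicate 2 or 3. That call was also lost with no filter on low counts and with only those stages fitted (adjusted p up to 0.0832).

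Aldh1a2 is also known from the lining of the body cavity, and Wt1 and Upk3b, which mark that lining, also differed between libraries of 1 group. Wt1, a transcription factor of that lining, had 7.09 CPM in control E10.5 replicate 3, the control with the most Aldh1a2, and 1.48 and 0.709 in the other E10.5 controls. Upk3b, a mesothelial membrane protein, had 2.33 CPM in that library and 0.328 and 0.177 in the others. The E10.5 mutants had 10.4, 14.1 and 4.72 CPM of Wt1 and 2.42, 3.91 and 4.04 of Upk3b (replicates 1 to 3). Among them the most Wt1 was in replicate 2, which had the least Aldh1a2, and the least Upk3b was in replicate 1, which had the most. In mutant E11.5 replicate 1, the E11.5 mutant with the most Aldh1a2, Wt1 was at 10.8 and Upk3b at 7.60 CPM, against 1.23 and 2.28 for Wt1 and 0.0963 and 0.318 for Upk3b in the other E11.5 mutants. The summed level of the 6 markers of coelomic epithelium and body wall was 4.12 to 12.7 CPM in E10.5 controls, 12.0 to 22.2 in E10.5 mutants, 7.64 to 10.1 in E11.5 controls and 6.57 to 23.6 in E11.5 mutants, and in no group were any of the 6 at 0 in all libraries. The E11.5 controls had 27.0 to 93.1 CPM of Aldh1a2 beside 1.79 to 3.63 of Wt1 and 0.0264 to 0.187 of Upk3b. Of these controls, replicate 1 had the least Aldh1a2 and the most Wt1 and Upk3b. Within each E9.5 group the libraries had the same order for Aldh1a2, Wt1 and Upk3b. Wt1 and Upk3b made up most of the 6-marker sum in control E10.5 replicate 3 (12.7) and mutant E11.5 replicate 1 (23.6). The sum is therefore not separate from them, and the other listed markers are not shown singly. Without Wt1 and Upk3b, what remained of the sum was not the highest of its group in either library. Of the 6, 0 were called between genotypes at E10.5. The part of these cells in the Aldh1a2 values was not tested.

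**Figure D3:**
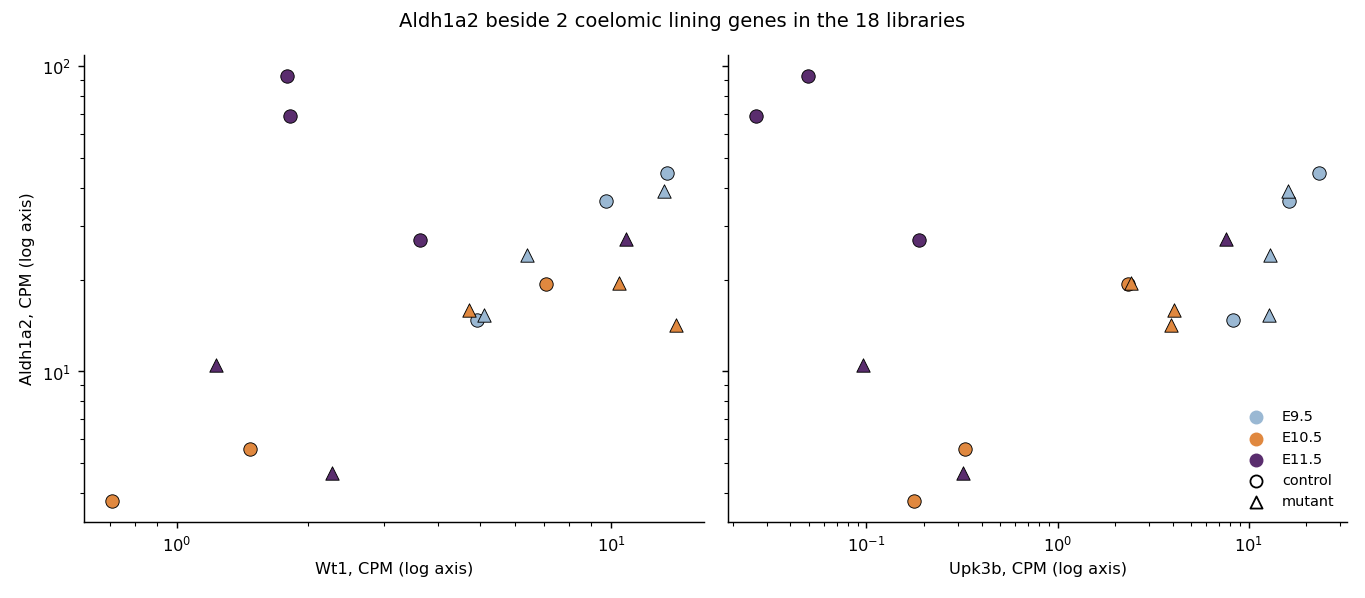
Aldh1a2 (CPM, log axis) against Wt1 (left) and Upk3b (right, both CPM on log axes) in the 18 libraries, coloured by stage, with circles for controls and triangles for mutants. In the right panel E11.5 controls sit at the upper left with 27.0 to 93.1 CPM of Aldh1a2 and at most 0.187 of Upk3b. In the left panel their Wt1 was 1.79 to 3.63 CPM, with other libraries on either side. The E10.5 control with 19.3 CPM of Aldh1a2 sits near the E10.5 mutants.

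Aldh1a3, a second enzyme for the same step, had few counts at E9.5 and E10.5 and more at E11.5. Its counts were 1, 11 and 0 in E9.5 controls and 13, 7 and 6 in E9.5 mutants, and 8, 34 and 14 in E10.5 controls and 32, 22 and 18 in E10.5 mutants. At E11.5 controls had 57, 191 and 213 counts and mutants 71, 109 and 37. The count of 0, in a library of 50655958 counts, allows a level of up to 0.0617 CPM (3 counts, counting error only). Mutants and controls overlapped at each stage, and the differences were 1.35 ± 0.91, 0.38 ± 0.71 and -1.29 ± 0.64 (adjusted p = 0.555, 0.775 and 0.183). In controls Aldh1a3 rose from E10.5 to E11.5 by 3.29 ± 0.71 (adjusted p = 0.00786), a call lost without control E10.5 replicate 1 (adjusted p = 0.0540). It was also lost with limma on the log2 FPKM values (adjusted p = 0.0725).

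Cyp26b1, which degrades retinoic acid, rose in control buds from E9.5 to E10.5 and was lower in mutants than in controls at E10.5 and E11.5. Control levels were 41.0, 60.9 and 55.6 CPM at E9.5, 225, 252 and 278 at E10.5, and 295, 248 and 253 at E11.5. Mutant levels were 60.3, 54.7 and 75.1, then 147, 113 and 119, then 79.1, 161 and 84.7. Every E10.5 mutant lay above every E9.5 mutant, a difference that was not tested. At E9.5 the groups overlapped, and at E10.5 and E11.5 every mutant lay below every control. The control rise from E9.5 to E10.5 was 2.26 ± 0.23 (4.79-fold, adjusted p = 2.96e-06), and from E10.5 to E11.5 the controls differed by 0.08 ± 0.22 (adjusted p = 0.887). Mutants differed from controls by 0.27 ± 0.22 at E9.5 (adjusted p = 0.616), fell by 0.99 at E10.5 (SE 0.22, 1.99-fold, adjusted p = 0.00614) and fell by 1.29 at E11.5 (SE 0.22, 2.45-fold, adjusted p = 0.000786). Both falls held with each library of the stage left out.

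With only the E10.5 libraries whose description opens with 41 (controls 1 and 2, mutants 1 and 2), the Cyp26b1 change was -0.87 (adjusted p = 0.107), while Stra6 (-1.39, adjusted p = 0.000167) and Rarg (-0.64, adjusted p = 0.00933) kept their calls. The change of the Cyp26b1 mutant effect from E9.5 to E10.5 was -1.26 ± 0.31 (adjusted p = 0.0444). It was lost in 10 of 12 fits that left out a library, the exceptions being control E9.5 replicate 2 and mutant E10.5 replicate 1, and also with the replicate block (adjusted p = 0.0612), with no filter on low counts and without both libraries that stood apart (-1.08, adjusted p = 0.188). Per 1000 CPM of mesenchyme markers, Cyp26b1 stood at 131 to 157 in E10.5 controls and 127 to 140.3 in E10.5 mutants, which overlapped, and at 125 to 149.5 in E11.5 controls and 88.8 to 146 in E11.5 mutants, which overlapped too.

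The ratio of Aldh1a2 to Cyp26b1 sets the synthase beside the breakdown enzyme, each per kb of exon. Its log2 value lay between -0.24 and 0.80 in E9.5 controls and between -0.74 and 0.30 in E9.5 mutants. At E10.5 it lay between -4.83 and -2.60 in controls and between -1.75 and -1.65 in mutants, so the mutants were above all 3 controls. At E11.5 it lay between -2.21 and -0.20 in controls and between -2.95 and -0.30 in mutants. This ratio was chosen after the values were seen and carries the Aldh1a2 spread described above.

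Crabp1 and Crabp2, the cytoplasmic carriers, were the most abundant members per kb in every group, at 97.8 to 752 CPM per kb on average, which placed them above the 98th percentile of tested genes. Crabp1 had 852, 465 and 492 CPM in E9.5 controls and 557, 383 and 412 in E9.5 mutants. It had 179, 151 and 207 in E10.5 controls and 179.9, 163 and 165 in E10.5 mutants, and 117, 92.1 and 82.2 in E11.5 controls and 98.1, 44.7 and 92.6 in E11.5 mutants. The genotypes overlapped at each stage, with differences of -0.42 ± 0.26, -0.08 ± 0.26 and -0.31 ± 0.26 (adjusted p = 0.533, 0.875 and 0.462). In controls it fell from E9.5 to E10.5 by 1.75 on the log2 scale (SE 0.27, adjusted p = 0.000171) and by a further 0.88 to E11.5 (SE 0.26, adjusted p = 0.0428), where the call held in 1 of 6 fits that left out a library, that without control E11.5 replicate 1. This later call was also lost with no filter on low counts and with only those stages fitted (adjusted p up to 0.138).

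Crabp2 had 832, 378 and 378 CPM in E9.5 controls and 356, 289.7 and 382 in E9.5 mutants, 417, 386 and 420.4 in E10.5 controls and 286, 248 and 215 in E10.5 mutants, and 287, 253 and 228 in E11.5 controls and 195, 187 and 214 in E11.5 mutants. The high E9.5 control is replicate 1, and the groups did not overlap at E10.5 or E11.5. The mutant difference was -0.63 ± 0.23 at E9.5 (adjusted p = 0.497), and -0.14 without that library. Crabp2 fell at E10.5 by 0.71 (SE 0.23, adjusted p = 0.0454), and the E11.5 difference was -0.37 ± 0.23 (adjusted p = 0.294). Leaving out any 1 E10.5 library ended the earlier call (adjusted p 0.0536 to 0.177), as did no filter on low counts, a stricter filter, limma on the log2 FPKM values and the libraries numbered 41 (adjusted p 0.0548 to 0.297), while without both libraries that stood apart its adjusted p was 0.000955 and that of E11.5 was 0.00928. Per 1000 CPM of mesenchyme markers, Crabp2 stood at 221 to 244 in E10.5 controls and 254 to 277 in E10.5 mutants, so the order was the reverse of that in CPM. Again the marker sum was lower in mutants by more than the gene was, which sets the order. Of the summed Crabp1 and Crabp2 level per kb, Crabp1 made up 66.0% ± 2.84 (SD, n = 3) in E9.5 controls and 68.2% ± 4.05 in mutants, 41.8% ± 2.80 and 52.9% ± 2.62 at E10.5, and 38.3% ± 1.55 and 38.4% ± 8.93 at E11.5. The E10.5 libraries of the genotypes did not overlap in this share, and those of the other stages did.

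Rarg, the receptor most abundant in limb mesenchyme, was the most abundant of the 3 receptors per kb in every group and fell in mutants at both later stages. Control levels were 139, 124 and 121 CPM at E9.5, 212, 228 and 243 at E10.5, and 234, 227 and 231 at E11.5. Mutant levels were 128, 128 and 125, then 148, 134 and 134, then 119, 157 and 143. At E9.5 the groups overlapped, and at E10.5 and E11.5 the highest mutant lay far below the lowest control. Rarg fell by 0.72 at E10.5 (SE 0.10, 1.64-fold, adjusted p = 0.000122) and by 0.72 at E11.5 (SE 0.10, 1.65-fold, adjusted p = 9.53e-05), and differed by -0.01 ± 0.10 at E9.5 (adjusted p = 0.973), with a 95% interval of -0.22 to 0.19. Both falls held with each library of the stage left out. The mutant effect was lower at E10.5 than at E9.5 by -0.71 ± 0.14 (adjusted p = 0.0144), a call lost without mutant E10.5 replicate 3 (adjusted p = 0.0535), and it differed by -0.01 ± 0.14 between E10.5 and E11.5. In controls Rarg rose by 0.83 ± 0.10 from E9.5 to E10.5 (adjusted p = 1.31e-05). Per 1000 CPM of mesenchyme markers, Rarg stood at 124 to 138 in E10.5 controls and 138 to 158 in mutants, and at 115 to 119 in E11.5 controls and 143 to 150.0 in mutants.

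**Figure D4:**
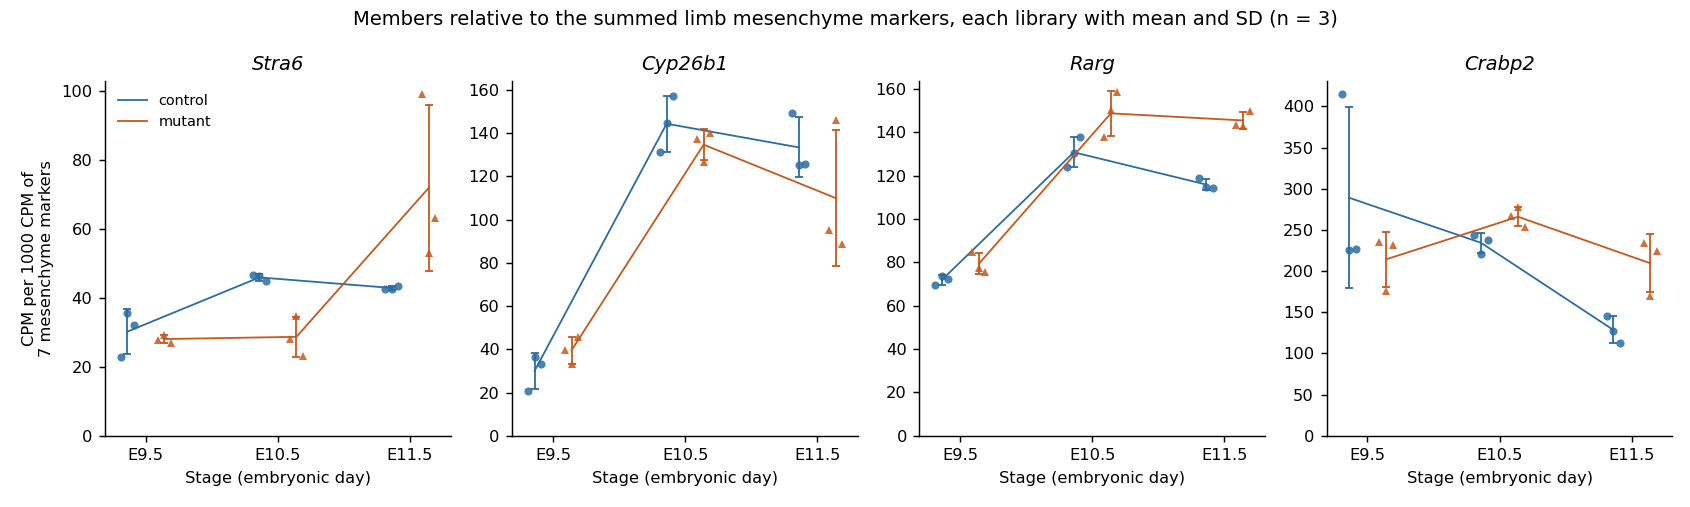
Stra6, Cyp26b1, Rarg and Crabp2 (CPM per 1000 CPM of the 7 limb mesenchyme markers, linear axes from 0) by stage in control (blue circles) and mutant (orange triangles) libraries, with mean and SD (n = 3). On this scale E10.5 mutants lay below controls for Stra6 (23.2 to 34.7 against 44.9 to 46.5) and not for Rarg (138 to 158 against 124 to 138).

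Rara, the receptor expressed in most tissues, had 59.6, 63.5 and 61.1 CPM in E9.5 controls and 66.8, 59.2 and 58.0 in E9.5 mutants, 67.1, 63.2 and 70.8 in E10.5 controls and 53.3, 66.7 and 54.8 in E10.5 mutants, and 82.2, 80.0 and 86.2 in E11.5 controls and 76.6, 74.5 and 61.1 in E11.5 mutants. The groups overlapped at E9.5 and E10.5 and did not at E11.5. The E10.5 and E11.5 differences were -0.20 ± 0.10 (adjusted p = 0.217) and -0.23 ± 0.10 (adjusted p = 0.150), and the E9.5 difference was 0.00 ± 0.10.

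Rarb, whose own transcription is a known response to retinoic acid, passed the test in controls from E10.5 to E11.5 and in no mutant comparison. Control levels were 40.1, 55.2 and 48.4 CPM at E9.5, 36.7, 25.0 and 27.0 at E10.5, and 14.9, 7.11 and 7.93 at E11.5. Mutant levels were 47.1, 46.4 and 45.3, then 23.2, 21.4 and 12.9, then 13.5, 5.43 and 19.3. The E10.5 mutants lay below the controls and the groups overlapped at E9.5 and E11.5. Mutant differences were -0.05 ± 0.34, -0.63 ± 0.35 and 0.35 ± 0.35 in order of stage (adjusted p = 0.965, 0.255 and 0.544). In controls Rarb differed by -0.70 ± 0.34 from E9.5 to E10.5 (adjusted p = 0.144) and fell by 1.56 from E10.5 to E11.5 (SE 0.36, adjusted p = 0.0106), and the call was lost without control E10.5 replicate 1 or control E11.5 replicate 2 or 3 (adjusted p up to 0.0724). Using no filter on low counts also ended that call (adjusted p = 0.0505). The higher E11.5 control, replicate 1, was also the E11.5 control with the least Aldh1a2. That library had the most Meis1 (68.8 against 30.8 and 26.3 CPM) and Meis2 (138 against 57.8 and 62.9) as well, factors of the proximal limb. Over the 18 libraries, Pearson's r of Rarb and Aldh1a2 was -0.21 in deviations from the group means.

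A promoter window of Rarb is shown because it was the only member window that held a DR5. A DR5 is a pair of receptor recognition hexamers in the same direction, 5 bases apart, through which the gene is known to answer to retinoic acid. Each hexamer was read as AGGTCA, allowing G for the first letter and T for the third, on either strand of RefSeq windows from 250 bases before to 50 bases after an annotated start (GRCm38.p6, the assembly also called mm10). A DR5 stood in 32 of 32851 such windows over all genes (0.0974%) and in 1 of 14 windows of the 7 members that have any, while 2 of those 14 held a single AGGTCA, which 16.3% of all windows hold. The annotated Rarb start of this window lies inside the counted span of the gene, whose upstream end is at chr14:16819156. Gene counts do not separate transcripts from different starts. The 250 bases before this start, chr14:16575477-16575726 on the minus strand, follow 5′ to 3′ with the DR5 in capitals.
Rarb: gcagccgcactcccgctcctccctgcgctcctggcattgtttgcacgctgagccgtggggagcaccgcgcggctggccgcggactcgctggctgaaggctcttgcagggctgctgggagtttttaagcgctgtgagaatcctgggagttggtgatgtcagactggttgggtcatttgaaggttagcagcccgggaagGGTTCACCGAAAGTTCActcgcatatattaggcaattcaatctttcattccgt
The site itself lies at chr14:16575513-16575529, 53 to 37 bases before the start. Cyp26a1, a breakdown enzyme outside the 10, held a DR5 on the strand opposite to its gene at chr19:37697776-37697792, 32 to 16 bases before its start, and the pair is printed to compare them.
Rarb DR5: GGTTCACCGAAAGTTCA
Cyp26a1 DR5: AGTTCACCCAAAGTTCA
These are matches of letters, and no binding was measured here.

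Summed per kb, the 3 receptors stood at 53.2 ± 1.34 CPM per kb (SD, n = 3) in E9.5 controls, 74.4 ± 3.52 in E10.5 controls and 75.0 ± 1.79 in E11.5 controls, against 52.6 ± 1.62, 49.5 ± 2.68 and 51.5 ± 3.46 in mutants. Every E10.5 and E11.5 control lay above every E9.5 control, while the ranges of the mutant stages overlapped. Rarg made up 56.4% ± 3.62 of the sum in E9.5 controls, 71.8% ± 2.45 in E10.5 controls and 72.2% ± 0.745 in E11.5 controls, and 56.6% ± 1.06, 65.8% ± 3.26 and 63.6% ± 4.76 in mutants. Rarb made up 17.1% ± 2.70, 7.58% ± 1.81 and 2.51% ± 1.03 in controls and 16.7% ± 0.209, 7.29% ± 1.77 and 4.79% ± 2.69 in mutants.

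**Figure D5:**
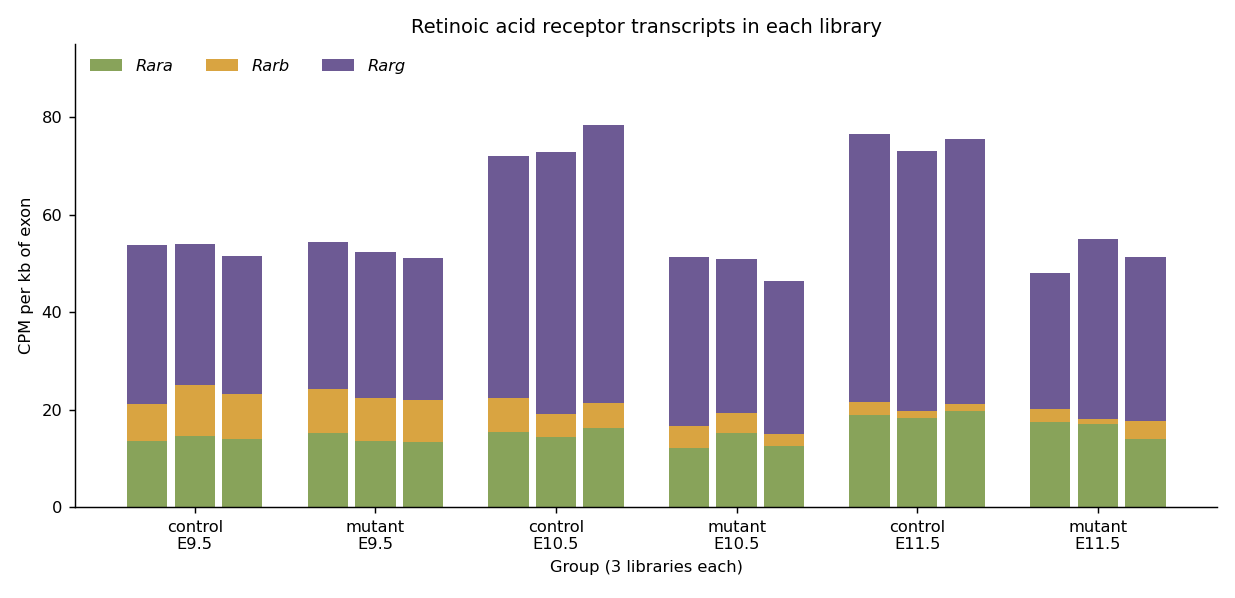
Rara, Rarb and Rarg (CPM per kb of exon, stacked from 0) in each of the 18 libraries, grouped by genotype and stage. The stacks of E10.5 and E11.5 controls reach 72.1 to 78.5, and those of E10.5 mutants 46.4 to 51.3.

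In E10.5 controls the members in order of level per kb were Crabp2 (308 ± 14.4 CPM per kb, SD, n = 3), Crabp1 (223 ± 34.7), Rarg (53.5 ± 3.70), Cyp26b1 (47.0 ± 4.98), Rara (15.4 ± 0.878), Stra6 (13.7 ± 0.150), Rarb (5.62 ± 1.19), Rdh10 (4.53 ± 0.155), Aldh1a2 (4.22 ± 3.76) and Aldh1a3 (0.0864 ± 0.0677). The ranges of Rarg and Cyp26b1 overlapped, as did those of Rdh10 and Aldh1a2, and the other neighbours were apart. In E10.5 mutants Crabp1 and Crabp2 overlapped and Rarg (32.5 ± 1.83) lay above Cyp26b1 (23.6 ± 3.41), and Aldh1a2 (7.32 ± 1.21) lay above Stra6 (4.62 ± 1.09).

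Other genes of the pathway were counted from 4 lists. At E9.5 0 genes of these lists were called by edgeR, against 0.184% of all genes. Over all genes 7.3% rose and 6.63% fell at E10.5, and 8.02% rose and 9.52% fell at E11.5. Of 16 tested genes of retinol handling and synthesis, 0 were called at E10.5, and Adh5, an alcohol dehydrogenase, was the only one at E11.5 (0.37 ± 0.12, adjusted p = 0.0467), a call lost with any 1 E11.5 library left out. Of the other 2 breakdown enzymes, Cyp26a1 was higher in E10.5 mutants (6.16, 6.92 and 27.9 CPM against 5.02, 5.23 and 3.91, log2 change 1.53 ± 0.44, adjusted p = 0.0289), and Cyp26c1 did not pass (1.02 ± 0.69, adjusted p = 0.361). The high Cyp26a1 value is mutant replicate 3, without which the change was 0.47 (adjusted p = 0.392). Leaving out any 1 of the E10.5 controls also ended that call (adjusted p up to 0.108).

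Of 13 other receptors, carriers and co-regulators, 2 rose and 0 fell at E10.5, beside 7.3% and 6.63% of all genes. They were Fabp5, a fatty acid and retinoic acid carrier (0.40 ± 0.12, adjusted p = 0.0388), which no fit without 1 library called, and Ppard, a nuclear receptor (0.53 ± 0.10, adjusted p = 0.00131). At E11.5 Fabp5 rose (0.60 ± 0.12, adjusted p = 0.00305) and Ncoa1, a receptor coactivator, fell by 0.84 (SE 0.21, adjusted p = 0.00872; lost without control replicate 3 or mutant replicate 3, adjusted p 0.0651 and 0.0575). Of the RXR partners, Rxra differed by -0.23 ± 0.11 at E10.5 and -0.26 ± 0.11 at E11.5 (adjusted p = 0.189 and 0.137).

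The list of genes known to respond to retinoic acid moved in both directions. Of 14 tested, 1 rose and 3 fell at E10.5, and 2 rose and 4 fell at E11.5, beside 7.3% of all genes rising and 6.63% falling at E10.5 and 8.02% and 9.52% at E11.5. Their median log2 change was -0.37 and 0.08, beside 0.02 and 0.01 over all genes. Tgm2, a transglutaminase, was at 17.0, 22.5 and 56.1 CPM in E10.5 mutants against 9.10, 11.48 and 7.53 in controls (1.77 ± 0.34, adjusted p = 0.00239, and 1.07 without mutant replicate 3), and it rose at E11.5 (1.45 ± 0.35, adjusted p = 0.00815).

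Those that fell include Zfp503, a zinc finger repressor (-0.64 ± 0.11 and -1.03 ± 0.11 at E10.5 and E11.5, adjusted p = 0.000849 and 1.19e-05), and Rarres2, which encodes chemerin (-1.24 ± 0.27 and -1.36 ± 0.28, adjusted p = 0.00568 and 0.00260). Tshz3, a zinc finger factor, fell too (-0.70 ± 0.16 and -0.68 ± 0.16, adjusted p = 0.00641 and 0.00590). Rarres1 fell at E11.5 (-2.73 ± 0.39, adjusted p = 0.000180), where controls had 4.24 to 6.88 CPM and mutants 0.779 to 1.00, and in controls it rose from E10.5 to E11.5 (3.18 ± 0.40, adjusted p = 0.000200). These 4 falls kept their calls with each library of the stage left out. In controls 5 of the 14 fell and 0 rose from E9.5 to E10.5, beside 12.5% and 15% of all genes, among them Hoxb1 (-4.86 ± 0.26, adjusted p = 2.88e-09) and Cdx1 (-4.49 ± 0.42, adjusted p = 1.33e-06). From E10.5 to E11.5 4 fell and 1 rose, beside 2.89% and 6.6% of all genes, the former including Meis1, a factor of the proximal limb (-1.13 ± 0.28, adjusted p = 0.0176).

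The genes most like each member were found by Pearson's r of log2 CPM over the 18 libraries, among 11788 genes. The libraries share stage and genotype, so r describes those shared patterns as well as any within them. Cyp26b1 was most like Mab21l2 (r = 0.97), Cped1 and Acsf2 (both 0.96), Rarg most like Arhgef40, Fam181b and Shox2 (each 0.97), and Crabp1 most like Hoxd8 (0.98), Hoxd3os1 (0.97) and Hoxd9 (0.96). Rarb followed Rspo4, AC132253.9 and the proximal limb factor Meis2 (each 0.96), and its r with Meis2 was 0.85 in deviations from the group means. The pattern of Crabp2 was nearest to that of Pbx2 (0.95, and 0.93 in deviations from the group means). That of Rdh10 was nearest to that of Prkg2 (0.94), but only at 0.09 in such deviations. Stra6 (Lrrc17, 0.91), Rara (Tceal3, 0.91), Aldh1a3 (Rbl2, 0.93) and Aldh1a2 (Efemp1, 0.83) had less close neighbours. Among the members themselves, Cyp26b1 and Rarg had the highest r, 0.91, and 0.48 in deviations from the group means.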

How the data were processed

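Forelimb buds were profiled in 18 libraries in 6 groups. Per the file headers, the authors' deposited counts came from featureCounts 1.6.4, run reverse-stranded and paired-end over exons of GENCODE M22 genes on mm10, and the submitters' processing notes also name cutadapt, STAR and limma, without settings. Deposited log2 FPKM values for 14692 genes served only as an alternative. Symbols matched 99.83% of identifiers. No member shared exon sequence with a gene on the same strand. Counts were fitted with edgeR 4.0.16 in R 4.3.3 (filterByExpr, TMM, robust quasi-likelihood, groups as coefficients) with Benjamini-Hochberg adjustment (common coefficient of variation 0.231), and checked on simulated data. Alternatives used DESeq2 1.42.0, limma 3.58.1, other filters and scalings, and left-out libraries. Members, lists and libraries called apart were chosen with earlier results of these data known. Named genes were the members, up to 4 called genes per pathway list and comparison, and the 3 genes most like each member. Leaving out libraries for the pathway genes was added after seeing the data. The values of 1 gene of the pathway lists are not reported here.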

Additional observations from a re-analysis of the deposited data

Results flagged for a closer look

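The mutant effect (mutant minus control, log2) differed between stages for 3 members, by edgeR's interaction contrasts. Stra6 had a lower effect at E10.5 than at E9.5, by -1.33 ± 0.22 (adjusted p = 0.00564), with all 3 E10.5 mutants under all 3 E10.5 controls and overlap at E9.5. The Stra6 effect then changed by 1.22 ± 0.22 from E10.5 to E11.5 (adjusted p = 0.0473). Cyp26b1 changed by -1.26 ± 0.31 from E9.5 to E10.5 (adjusted p = 0.0444), and Rarg by -0.71 ± 0.14 (adjusted p = 0.0144). Of these 4 calls, that of Stra6 from E9.5 to E10.5 held in all 12 fits that left out a library, that of Rarg in 11, that of Cyp26b1 in 2 and that of Stra6 from E10.5 to E11.5 in 1. The mean summed level of the 7 mesenchyme markers in mutants was 0.899 of that in controls at E9.5, 0.539 at E10.5 and 0.483 at E11.5, and its part in these changes was not tested.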

How the results depend on the processing

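Counts of members called were kept within 1.5 times under most alternatives. At E10.5, 4 were called, 3 with any library left out, and 2 with the libraries numbered 41. At E11.5 3 were called, 2 to 4 with a library left out, and 5 without both libraries that stood apart. For the effect change from E9.5 to E10.5, leaving out 1 library gave 1 to 3 calls against 3. For E10.5 to E11.5, 1 call became 0 with only those stages fitted and 0 with the replicate block, and 0 to 1 with a library left out. For E11.5 against E10.5 controls, 4 calls became 7 with DESeq2, 1 with no filter on low counts, 7 without both libraries that stood apart, and 0 to 5 with a library left out.

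Among differences that did not pass the test, signs turned. Rdh10 at E9.5 (0.00) became -0.00748 with the strict filter, -0.0256 with the length trend removed, -0.0281 with limma on the log2 FPKM values and -0.0359 without both libraries, Rara at E9.5 became 0.00486 with no filter and 0.00506 with only those stages, Rarg at E9.5 became 0.0564 without both libraries, Crabp1 at E10.5 became 0.0551 with the libraries numbered 41, Crabp2 of E10.5 against E9.5 controls became 0.104 without both libraries, and Rarg of E11.5 against E10.5 controls became -0.0133 with the length trend removed. With a library left out, ranges that crossed 0 were -0.0469 to 0.0951 (Rdh10), -0.697 to 0.0375 (Aldh1a2), -0.0651 to 0.0379 (Rara), -0.159 to 0.0663 (Rarb) and -0.0463 to 0.0563 (Rarg) at E9.5, -0.0587 to 0.137 (Rdh10) and -0.189 to 0.0370 (Crabp1) at E10.5, -0.0734 to 0.758 (Rarb) at E11.5, -0.565 to 0.104 (Crabp2) for E10.5 against E9.5 controls, and -0.00487 to 0.154 (Cyp26b1) and -0.0323 to 0.0682 (Rarg) for E11.5 against E10.5 controls. The cause was not tested.

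Whether replicate numbers pair the samples was not settled. Same-numbered mutant and control deviations correlated at 0.0693 to 0.184 at E9.5, -0.00328 to 0.0865 at E10.5 and -0.148 to 0.108 at E11.5. Differently numbered ones correlated at -0.137 to 0.0705, -0.0750 to 0.0155 and -0.214 to 0.260 in that order. Same-numbered values were mostly the higher at E9.5 and E10.5, and not at E11.5. Of mutant and control libraries that share the number opening their description, the E11.5 pair (79) correlated at 0.260, the E9.5 pair (65) at -0.128, and the 4 pairs at E10.5 (41) at -0.0750 to 0.0865. With the replicate block 0, 4 and 3 members were called at the 3 stages, and 2 for the effect change from E9.5 to E10.5. Over all genes, calls at E9.5 were 37, 131 with DESeq2 and 5 with only that stage fitted, and at E10.5 2802, 6337 with only that stage and 876 with the libraries numbered 41. At E11.5 they were 3529, and 5913 without both libraries. For the effect change they were 446, 1417 with DESeq2 and 218 with only those stages (E9.5 to E10.5), and 15, 195 with DESeq2, 26 with only those stages, 10 with the block, 10 with no filter and 9 with limma (E10.5 to E11.5). For E11.5 against E10.5 controls they were 1910, 3697 with only those stages and 3723 without both libraries. Aldh1a3 had 0 to 34 counts per library at E9.5 and E10.5, where depth limits what can be seen, and 37 to 213 at E11.5.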
